A study of Mus musculus with 5 samples.

Results

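The genes described here are 40 epithelial serine proteases and protease inhibitors of the mouse: 8 kallikreins, 9 other serine proteases, 3 inhibitors with Kazal or Kunitz domains, 12 serpins of clade B, 5 stefins and cystatins and 3 other inhibitors. They were chosen by name as a functional group, with earlier results of these data known. Of the 40 genes, 35 had a probe set annotated with that one symbol, 44 probe sets in all, out of 18193 genes and 45101 probe sets on the array. Klk14, Serpinb10, Serpinb13, Stfa1 and Stfa2 were not analysed here. Expression in the esophagus was read on Affymetrix Mouse Genome 430 2.0 arrays. All mice were CC10-rtTA/tetO-IL-13 transgenics in the FVB/N background, 3 to 4 months old. In this line the CC10 promoter, active in club cells of the airway, drives a transactivator that turns on a transgene for the type 2 cytokine IL-13 once doxycycline is given. Mice of the Dox group (n = 3 arrays) received doxycycline in the diet and mice of the NoDox group (n = 2 arrays) a regular diet. Doxycycline-fed mice lacking the transgene are not among the arrays used here, so effects of doxycycline itself and of induced IL-13 cannot be told apart. Whether the arrays came from separate animals is not stated in the labels, and p-values therefore reflect only the spread among these 5 arrays.

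In stratified epithelia such as the lining of the esophagus, serine proteases are secreted or held at the cell surface as inactive precursors that activate one another in a cascade. Kallikreins of the upper layers cut the cadherins of desmosomes and so let surface cells shed, and the membrane proteases matriptase and prostasin act on barrier proteins and sodium channels. Inhibitors hold the cascade in check: Kazal and Kunitz domain proteins and serpins block serine proteases, while stefins and cystatins block cysteine proteases. Loss of SPINK5 in people causes Netherton syndrome, in which unrestrained kallikreins break down the skin barrier.

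Each value is a ratio, the signal of a probe set in 1 array over its mean in the 2 NoDox arrays, so the NoDox values lie around 1. Fold changes are on the log2 scale, Dox minus NoDox, with the standard error (SE) of the limma fit over all 18193 genes, and a gene was called at a Benjamini-Hochberg adjusted p under 0.05. Where a gene had several probe sets, the one of highest signal level stood for it. In bulk tissue, fewer cells of a type and less RNA per cell cannot be told apart.

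In the esophagus of Dox mice 1 member rose, the stefin Stfa3 (3.17-fold), and 3 members fell, all inhibitors: Serpinb7 (2.90-fold lower), Spink5 (2.15-fold lower) and Serpinb8 (1.97-fold lower). Over all genes 183 (1.01%) were higher and 123 (0.676%) lower by the same test. None of the 16 measured proteases passed it, although 2 of them, Klk6 and Tmprss4, were above both NoDox arrays in all Dox arrays, with adjusted p of 0.0707 and 0.0556. Of the 16 proteases 11 had a fold change below 0, with a median of -0.16, and of the 19 inhibitors 16 were below 0, with a median of -0.30. The median of all genes was -0.085. All 4 calls were lost when limma was run without the intensity trend, with adjusted p of 0.0693 to 0.195 and the same fold changes. At an unadjusted p under 0.05 stood 17 of the 35 members (48.6%) and 3078 of all genes (16.9%). The members were brighter than most genes, with 32 of the 35 above the 75th percentile of signal level, and bright genes had small SEs. These shares, and the counts by array that follow, were not matched for signal level.

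Counted by array, all 3 Dox values were below both NoDox values in 16 of the 35 members and above both in 4. Among all genes the same held for 22.4% (below) and 13.7% (above). The other 15 members overlapped between the groups. The scaling of the arrays bears on these counts: undoing a constant that was found to multiply each array moved the median of all genes by 0.11, to 0.026. The member median was 0.14 below the all-gene median, a gap that a constant per array cannot move. The gap was 0.079 with quantile-normalized signals and 0.22 without NoDox replicate 1. With the constants undone, 25 in place of 27 members were then below 0 (23 with quantile-normalized signals). With the constants undone 249 genes were higher and 77 lower, with each array centred on its median 204 and 82, and with quantile-normalized signals 212 and 59.

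**Figure D1:**
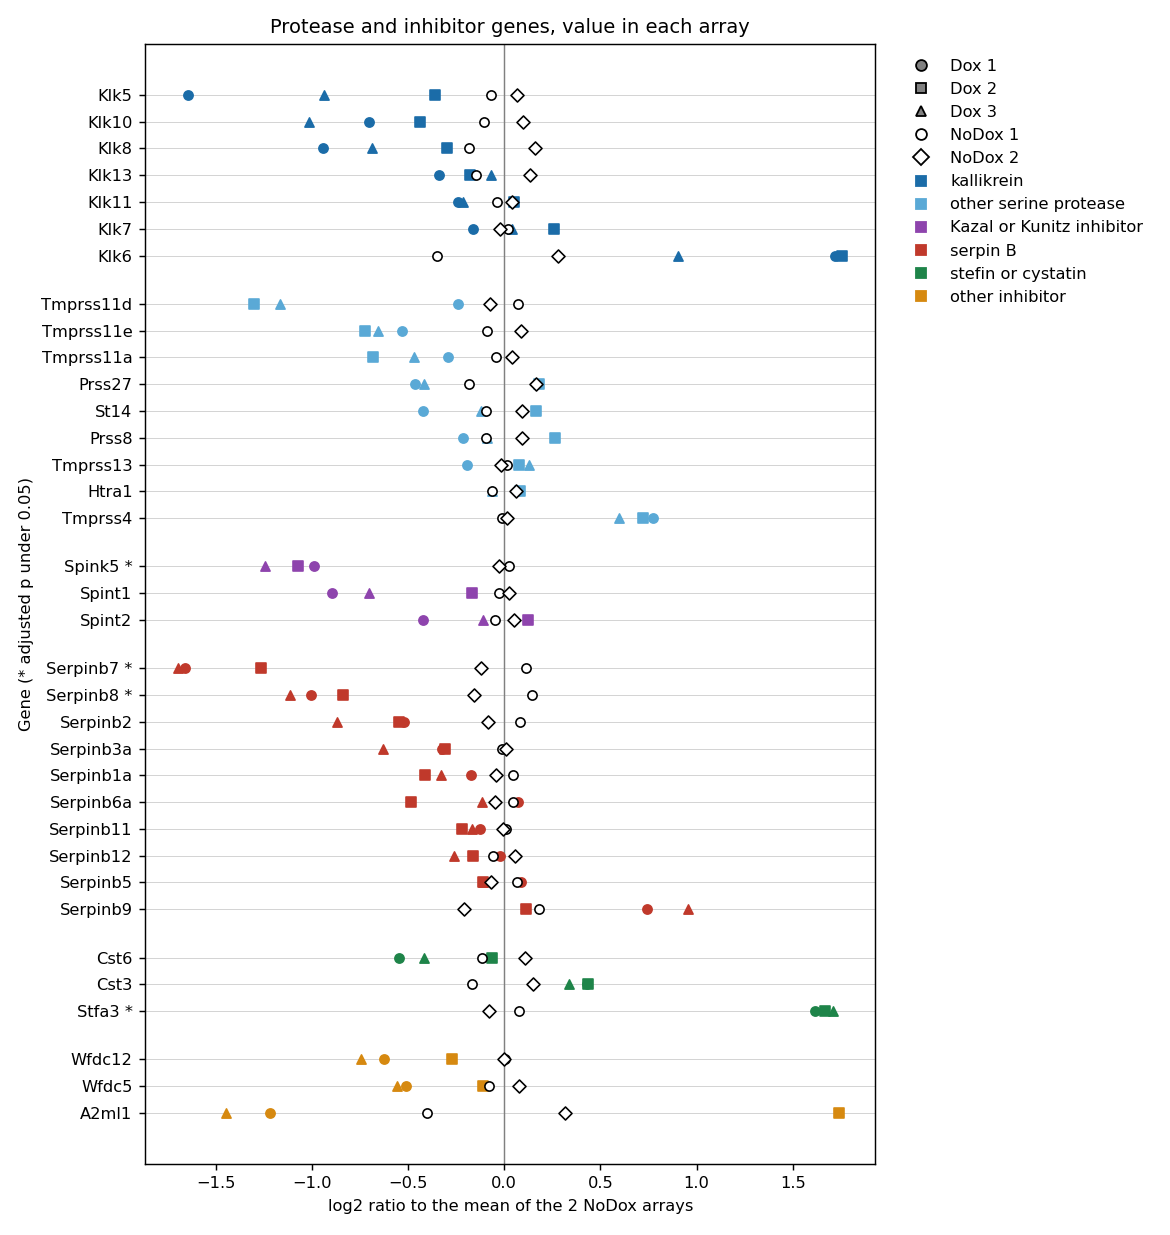
Each row is 1 measured gene and each symbol 1 array: filled symbols are the 3 Dox arrays, open symbols the 2 NoDox arrays, and the horizontal axis is the log2 ratio over the NoDox mean. Colours mark the 6 roles, and an asterisk marks the 4 genes past the threshold. Stfa3 lies far to the right in all Dox arrays, Serpinb7, Serpinb8 and Spink5 far to the left, and A2ml1 is far to the right in Dox replicate 2 alone.

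The start regions of 4 genes are shown, without that of the called Spink5. They belong to the called stefin Stfa3, to its relative Stfa2l1, which rose as well, and to the called near neighbours Serpinb7 and Serpinb8. Each is the RefSeq window of 300 bases on GRCm38.p6, from 250 bases before the annotated start to 50 after it, 5′ to 3′ in the direction of the gene. Capitals mark TGAGTCA, the binding motif of AP-1 factors. The windows are chr16:36455343-36455642 (minus strand) for Stfa3, chr16:36156561-36156860 (plus strand) for Stfa2l1, chr1:107422439-107422738 (plus strand) for Serpinb7 and chr1:107589756-107590055 (plus strand) for Serpinb8.
Stfa3: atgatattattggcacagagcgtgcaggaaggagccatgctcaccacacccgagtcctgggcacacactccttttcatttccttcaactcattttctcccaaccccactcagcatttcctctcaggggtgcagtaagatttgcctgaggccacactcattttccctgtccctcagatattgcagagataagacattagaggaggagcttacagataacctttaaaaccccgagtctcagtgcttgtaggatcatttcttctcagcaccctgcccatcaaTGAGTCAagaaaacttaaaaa
Stfa2l1: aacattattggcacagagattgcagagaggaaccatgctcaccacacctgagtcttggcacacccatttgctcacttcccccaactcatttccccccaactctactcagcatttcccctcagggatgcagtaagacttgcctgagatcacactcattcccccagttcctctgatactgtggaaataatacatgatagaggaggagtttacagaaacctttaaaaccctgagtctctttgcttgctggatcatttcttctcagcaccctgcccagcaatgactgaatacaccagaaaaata
Serpinb7: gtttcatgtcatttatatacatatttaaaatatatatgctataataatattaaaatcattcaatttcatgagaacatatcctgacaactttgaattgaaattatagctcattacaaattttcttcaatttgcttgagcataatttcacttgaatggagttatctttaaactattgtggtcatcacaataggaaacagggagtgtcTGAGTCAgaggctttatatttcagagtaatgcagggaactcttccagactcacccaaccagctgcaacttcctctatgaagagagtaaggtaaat
Serpinb8: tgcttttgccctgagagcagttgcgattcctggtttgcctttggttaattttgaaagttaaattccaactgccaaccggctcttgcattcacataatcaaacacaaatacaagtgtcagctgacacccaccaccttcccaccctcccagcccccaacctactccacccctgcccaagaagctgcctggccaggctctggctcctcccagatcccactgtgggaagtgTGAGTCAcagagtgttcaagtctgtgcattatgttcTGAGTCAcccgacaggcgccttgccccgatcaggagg

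The windows of Stfa3 and Stfa2l1 were 81.0% identical over 306 aligned columns, whereas those of Serpinb7 and Serpinb8 were 49.0% identical over 349. TGAGTCA, searched on both strands, occurred at -45 in Serpinb7, at -23 and 13 in Serpinb8 and at 29 in Stfa3, counted from 0 at the annotated start. It occurred in 5.2% of all 32851 windows. Of the 35 windows of the 30 listed members that have one, 4 (11.4%) held it, the fourth being of Spint1. Spink5 was not among the members with a match. The other motifs searched were TTC and GAA with 4 bases between them (a STAT motif, in 6.95% of all windows and 5 member windows, 14.3%), TTTAAA (13.2% of all, 8 member windows, 22.9%), TATAAA (13.6% of all, 7 member windows, 20.0%) and AGATAA (11.2% of all, 7 member windows, 20.0%). TTTAAA lay at -31 in Stfa3 and at -33 in Stfa2l1. In Serpinb7 a TTTAAA match and an AGATAA match on the other strand share 1 base. A match is a description of these letters and not a site of binding.

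Among the kallikreins, secreted trypsin-like and chymotrypsin-like proteases, Klk6 showed the largest fold change. Its ratios were 3.30, 3.38 and 1.87 in the Dox arrays and 0.785 and 1.21 in the NoDox arrays. All Dox values were above both NoDox values, and Dox replicate 3 stood lower than the other Dox arrays. This gave a log2 fold change of 1.50 ± 0.31 (SE), with a 95% confidence interval of 0.77 to 2.22, and it missed the threshold (limma, adjusted p = 0.0707). Klk6 passed in 2 of 20 alternative settings, robust eBayes among them (adjusted p = 0.0497), and over its alternatives the adjusted p ran from 0.00642 to 0.495.

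Klk5, which starts the kallikrein cascade and is held by Spink5, pointed the other way. Its ratios were 0.320, 0.779 and 0.522 in Dox and 0.952 and 1.05 in NoDox, with all Dox arrays below both NoDox arrays and a wide spread among them. At -0.98 ± 0.33 (SE), its log2 fold change missed the threshold (limma, adjusted p = 0.212).

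Klk10 had ratios of 0.614, 0.737 and 0.495 in Dox and 0.931 and 1.07 in NoDox. These groups did not overlap, and the log2 fold change of -0.72 ± 0.19 (SE) missed the threshold (limma, adjusted p = 0.133). Klk8, known as neuropsin and also made in keratinocytes, had a log2 fold change of -0.63 ± 0.22 (SE), again without overlap and short of the threshold (limma, adjusted p = 0.215). Klk7, the chymotrypsin-like partner of Klk5 in desquamation, was near 0 at 0.046 ± 0.16 (SE), and turned to -0.060 without Dox replicate 2. Klk11 and Klk13 were at -0.13 and -0.19, with Dox arrays on both sides of a NoDox array, and Klk11 was at 0.011 with quantile-normalized signals. Of the 7 measured kallikreins 5 were below 0 (Klk11 not so with quantile-normalized signals) and 2 above, and none passed the test.

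Among the membrane and other serine proteases, Tmprss4, a transmembrane protease known to activate the epithelial sodium channel, was highest. Its ratios were 1.71, 1.65 and 1.51 in Dox and 0.990 and 1.01 in NoDox. The Dox arrays lay close together and well above both NoDox arrays. Tmprss4 thus had a log2 fold change of 0.70 ± 0.13 (SE), with a 95% confidence interval of 0.39 to 1.01 (limma, adjusted p = 0.0556). It passed the threshold in 6 of 20 alternative settings, among them centring each array on its median (adjusted p = 0.0394) and undoing the array constants (adjusted p = 0.0357). Over its alternatives the adjusted p ran from 0.0317 to 0.334.

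Tmprss11d, the airway trypsin-like protease, had ratios of 0.845, 0.406 and 0.446 in Dox and 1.05 and 0.949 in NoDox. Dox replicate 1 stood close to the NoDox arrays and the other Dox arrays well below them. The log2 fold change of -0.90 ± 0.30 (SE) missed the threshold (limma, adjusted p = 0.211), while without Dox replicate 1 it was -1.23 and passed it (adjusted p = 0.0375). Its relatives Tmprss11a and Tmprss11e, of the same family of surface proteases, had log2 fold changes of -0.48 and -0.64, each with all Dox arrays below both NoDox arrays and neither past the threshold. Matriptase (St14) and its partner prostasin (Prss8), which activate one another, were at -0.12 ± 0.19 and -0.013 ± 0.18 (SE). Prss8 changed sign under each of the 4 scaling alternatives, where it ran from 0.040 to 0.12. Prss27, a protease of squamous epithelium, was at -0.23, Tmprss13, a further transmembrane protease, at 0.0045 and the secreted protease Htra1 at 0.031, all with overlapping groups.

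**Figure D2:**
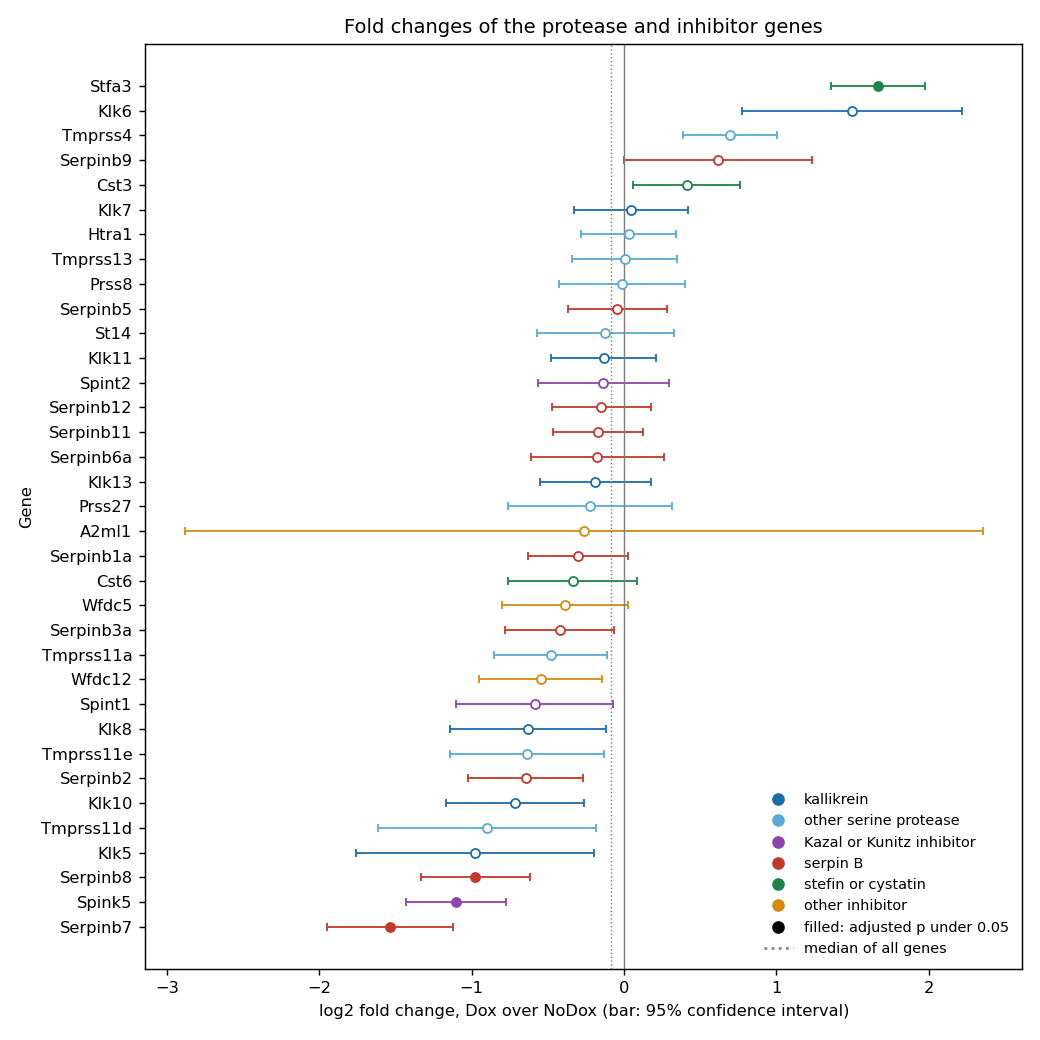
Log2 fold change of each measured gene, Dox over NoDox (horizontal axis), with its 95% confidence interval from limma, genes ordered by fold change. Filled points are the 4 genes at an adjusted p under 0.05, the dotted line is the median of all genes, and the interval of A2ml1, from -2.88 to 2.35, is the widest of the 35.

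Of the inhibitors with Kazal or Kunitz domains, Spink5 fell. Spink5 encodes LEKTI, a multidomain Kazal inhibitor of Klk5, Klk7 and Klk14. Its ratios were 0.503, 0.476 and 0.422 in Dox and 1.02 and 0.982 in NoDox. All Dox arrays lay well below both NoDox arrays, and neither group spread far. Spink5 fell by 1.10 ± 0.14 (SE) on the log2 scale, with a 95% confidence interval of -1.43 to -0.77 (limma, adjusted p = 0.0169). The call was lost without Dox replicate 3 (adjusted p = 0.0699), without NoDox replicate 1 (0.195) and without NoDox replicate 2 (0.179), with fold changes between -1.13 and -1.03. Without a NoDox array that group is 1 array, which the fit assumes to vary like the Dox arrays, here and for the other genes, and fewer arrays leave fewer degrees of freedom.

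Spint1, a Kunitz inhibitor of matriptase and of the activator of hepatocyte growth factor, had ratios of 0.538, 0.891 and 0.614 in Dox and 0.982 and 1.02 in NoDox. All Dox arrays were lower, with Dox replicate 2 close to NoDox. The log2 fold change of -0.59 ± 0.22 (SE) missed the threshold (limma, adjusted p = 0.247), and without Dox replicate 2 it was -0.80 and passed it (adjusted p = 0.0379). Its relative Spint2 was at -0.14, with overlapping groups in both of its probe sets and a value of 0.0050 with quantile-normalized signals.

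The serpins of clade B, mostly intracellular suicide inhibitors, held 2 members that fell. Of the 10 measured 9 were below 0, with a median of -0.24. However, Serpinb5, in the probe set used, turned above 0 under all 4 scaling alternatives, and Serpinb12 was above 0 in its second probe set. Serpinb7, a serpin of the upper epidermis whose loss in people causes a palmoplantar keratosis, had ratios of 0.316, 0.416 and 0.309 in Dox and 1.08 and 0.920 in NoDox. The Dox arrays lay far below both NoDox arrays. Serpinb7 fell by 1.54 ± 0.18 (SE) on the log2 scale, with a 95% confidence interval of -1.95 to -1.12 (limma, adjusted p = 0.0127). The call was lost without Dox replicate 3 (adjusted p = 0.0560), without NoDox replicate 1 (0.153) and without NoDox replicate 2 (0.0938), with fold changes between -1.65 and -1.42.

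Serpinb8, a serpin that inhibits the proprotein convertase furin, had ratios of 0.499, 0.558 and 0.462 in Dox and 1.10 and 0.896 in NoDox. Each Dox array was below both NoDox arrays. The log2 fold change was -0.98 ± 0.15 (SE), with a 95% confidence interval of -1.34 to -0.62 (limma, adjusted p = 0.0324). A second probe set of the gene gave ratios of 0.603, 0.563 and 0.436 in Dox and 1.02 and 0.983 in NoDox, a log2 fold change of -0.92. The Serpinb8 call was lost without Dox replicate 1 (adjusted p = 0.0825), Dox replicate 3 (0.116), NoDox replicate 1 (0.270) or NoDox replicate 2 (0.166), with fold changes between -1.13 and -0.83. It was lost as well with the array constants undone (0.0527), the signals quantile-normalized (0.0594) or all probe sets tested (0.0560), and it held in 10 of 20 alternative settings.

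Serpinb2, the plasminogen activator inhibitor of type 2, had ratios of 0.696, 0.684 and 0.547 in Dox and 1.06 and 0.942 in NoDox, without overlap. Its log2 fold change of -0.64 ± 0.16 (SE) missed the threshold (limma, adjusted p = 0.115). Serpinb3a, the counterpart of the human squamous cell carcinoma antigens, was at -0.42 and Serpinb1a, an inhibitor of neutrophil elastase, at -0.30. Both were without overlap and short of the threshold. In a second probe set of Serpinb1a, at -0.35, the groups overlapped narrowly. The probe set of Serpinb3a is of a type that can bind near-identical relatives, so its value is uncertain as to the gene. Serpinb5 (maspin) was at -0.044 in the probe set used and at -0.25, -0.41 and -0.48 in its other probe sets. The first value rested on an arbitrary order among bright probe sets, and under the 4 scaling alternatives it ran from 0.033 to 0.10. Serpinb6a, Serpinb11 and Serpinb12 lay between -0.18 and -0.15, and a second probe set of Serpinb12 gave 0.021.

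Serpinb9, the inhibitor of granzyme B, was the member of this group above 0. Its ratios were 1.67, 1.08 and 1.94 in Dox and 1.13 and 0.865 in NoDox, so that Dox replicate 2 fell between the NoDox arrays. Its log2 fold change of 0.62 ± 0.26 (SE) missed the threshold (limma, adjusted p = 0.297). A second probe set gave 0.65, with ratios of 1.43, 1.40 and 1.91 in Dox and 1.07 and 0.933 in NoDox. There the groups did not overlap, and Dox replicate 2 stood close to Dox replicate 1. Markers of T and NK cells, in which Serpinb9 is also made, had a summed signal of 2.17, 1.17 and 2.50 in Dox replicates 1 to 3 and of 1.50 and 0.504 in NoDox. The sum is weighted by signal level, and Gzma is by far the brightest of these 10 markers. The Gzma ratios were 2.75, 1.18 and 3.13 in Dox and 1.80 and 0.204 in NoDox. Of the 10 markers none passed the threshold and 8 were above 0. Their part in the Serpinb9 value was not tested.

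The stefins and cystatins held the one member that rose. Stfa3, a mouse stefin A that inhibits cysteine cathepsins, had ratios of 3.06, 3.18 and 3.27 in Dox and 1.05 and 0.946 in NoDox. The 3 Dox arrays lay within a narrow band far above both NoDox arrays. The log2 fold change was 1.67 ± 0.13 (SE), with a 95% confidence interval of 1.36 to 1.98 (limma, adjusted p = 0.00242). It kept its call with each array left out in turn, with adjusted p of up to 0.0478, and lost it without the intensity trend (0.0693) or with the mean log2 ratio as trend (0.292). Stefin A genes are near-identical copies, so signal of one may come in part from another.

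Stefins of this family are known from neutrophils as well as from keratinocytes. Of 12 measured neutrophil markers 2 rose, S100a8 (log2 fold change 3.42) and S100a9 (1.13), both also made by stressed keratinocytes. The next by p, Mmp9, was at 1.22 (limma, adjusted p = 0.0708), and 7 of the 12 were above 0. The summed signal of the 12 was 1.87, 1.76 and 1.25 in Dox replicates 1 to 3 and 1.04 and 0.958 in NoDox. In this level-weighted sum S100a8 and S100a9 were the brightest genes. The next brightest, Il1r2 and Ltf, were at -0.86 and -2.44, neither past the threshold. The part of the sum in the Stfa3 value was not tested. Cst3, the secreted cystatin C, had ratios of 1.35, 1.35 and 1.26 in Dox and 0.890 and 1.11 in NoDox, a log2 fold change of 0.41 ± 0.15 (SE) short of the threshold (limma, adjusted p = 0.233). Cst6, the epidermal cystatin M/E, was at -0.34 with overlapping groups.

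The 3 other inhibitors were below 0. Wfdc12, a small secreted protein with a WAP domain, had ratios of 0.649, 0.827 and 0.596 in Dox and 1.001 and 0.999 in NoDox, without overlap. Its log2 fold change of -0.55 ± 0.17 (SE) missed the threshold (limma, adjusted p = 0.181) and passed it without Dox replicate 2 (-0.68, adjusted p = 0.0489). Its relative Wfdc5 was at -0.39, also without overlap. A2ml1, a broad protease trap related to alpha-2-macroglobulin, had ratios of 0.430, 3.34 and 0.367 in Dox and 0.757 and 1.24 in NoDox. Dox replicate 2 alone was high and the other Dox arrays were below both NoDox arrays. Its probe set was dim, at 135 to 1286 steps of the recovered signal, and the log2 fold change of -0.26 ± 1.11 (SE) had no settled sign.

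**Figure D3:**
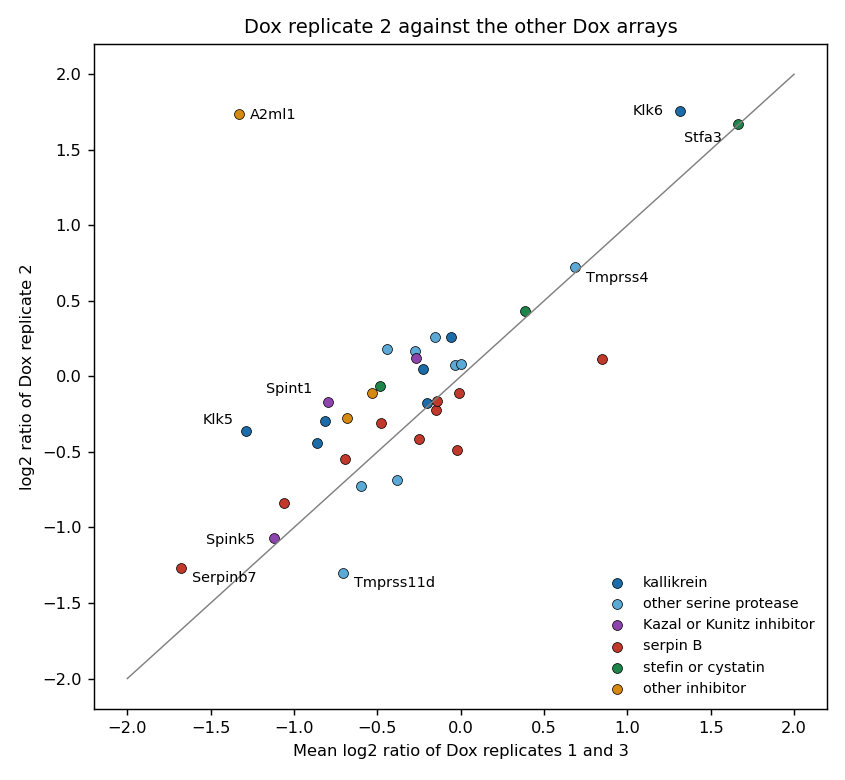
Each point is 1 measured gene: the log2 ratio of Dox replicate 2 (vertical axis) against the mean log2 ratio of Dox replicates 1 and 3 (horizontal axis), with colours for the roles and a line of equality. Of the 7 kallikreins 6 had their highest Dox value in replicate 2 and lie on the upper left side, and A2ml1 is the point farthest from the line.

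The order of the Dox arrays varied between roles. Dox replicate 2 was the highest Dox array in 20 of the 35 members (57.1%) and in 34.2% of all genes. It was the highest in 6 of the 7 kallikreins and in all 3 other inhibitors, but in 3 of the 10 serpins, of which 6 were highest in Dox replicate 1. The member median of the log2 ratio was -0.33, -0.16 and -0.33 in Dox replicates 1 to 3, while that of all genes was -0.063, -0.087 and -0.11. For the 11 measured markers of squamous epithelium the summed signal was 0.959, 1.03 and 0.902 in the same arrays, and its part in this order was not tested.

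Genes of these families lie next to each other, and the order was taken from RefSeq on GRCm38.p6. In the first serpin B cluster all 7 measured genes were below 0, with a median of -0.42. However, Serpinb5, in the probe set used, was above 0 under the 4 scaling alternatives, and Serpinb12 was so in its second probe set. The called Serpinb7 and Serpinb8 lie at one end of this cluster, with Serpinb2 and the unmeasured Serpinb10 between them. In the second serpin B cluster 4 of 11 measured genes were below 0 and 7 above, with a median of 0.19, and several of these genes were dim. In the kallikrein cluster 10 of 19 were below 0 and 9 above. Klk6, at 1.50, lies there between Klk7 at 0.046 and Klk5 at -0.98. In the Tmprss11 cluster 4 of 5 were below 0, and the exception was Tmprss11g at 1.03 ± 0.32 (SE), not past the threshold (limma, adjusted p = 0.178).

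**Figure D4:**
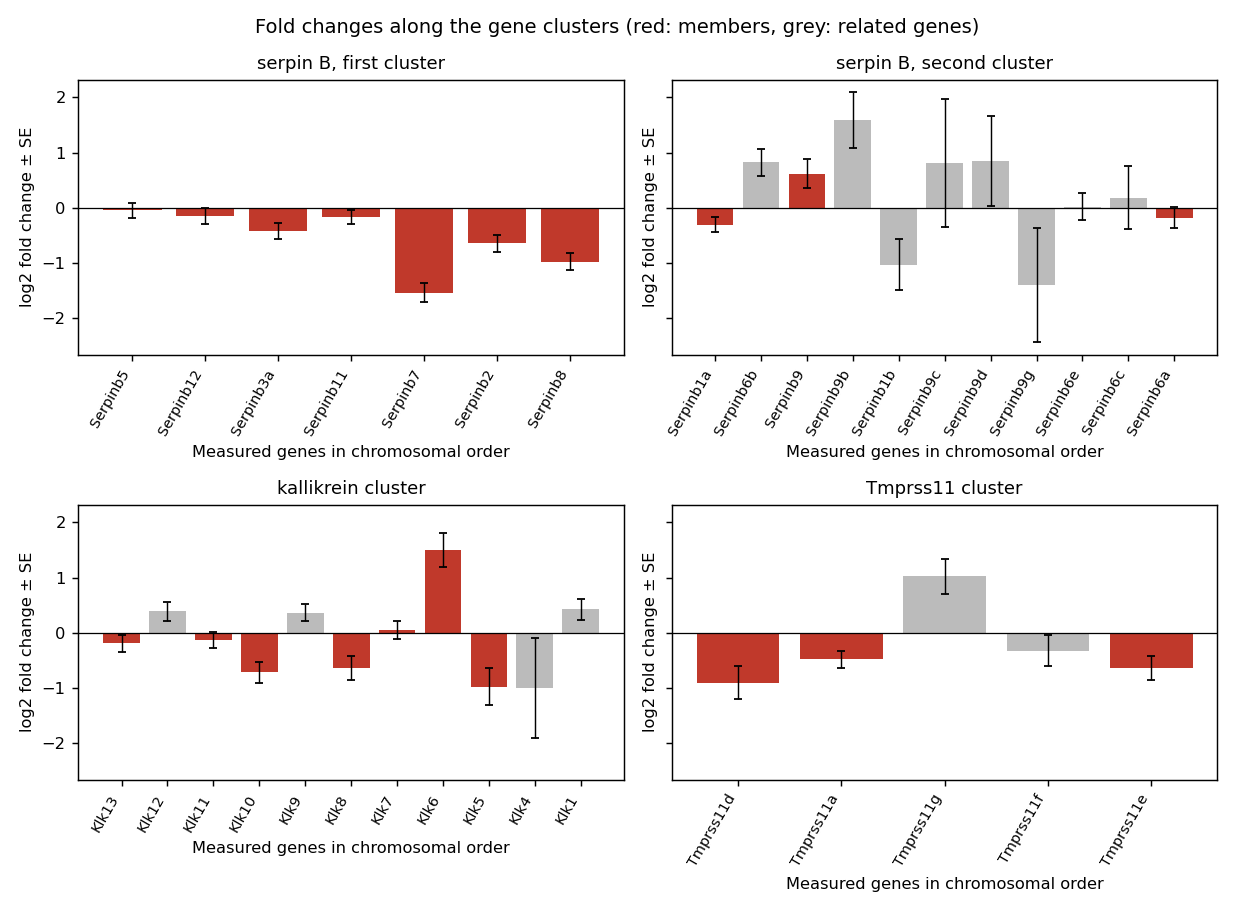
Bars give the log2 fold change (Dox over NoDox) and whiskers the SE of each measured gene in chromosomal order within 4 clusters, in red for the member genes and in grey for related genes of the same cluster. The Klk1b genes of the kallikrein cluster are not drawn. All bars of the first serpin B cluster point down (that of Serpinb5, for the probe set used, points up under the 4 scaling alternatives), and the kallikrein cluster is mixed.

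Related genes outside the set were taken from 5 lists. Of 12 other kallikreins none passed the threshold, and the smallest p belonged to Klk9 (log2 fold change 0.37) and Klk12 (0.39). Of 19 other epithelial serine proteases none passed, with Tmprss11g at 1.03 and Prss35 at 2.65 ± 0.85 (SE). The NoDox ratios of Prss35 stood far apart, at 1.72 and 0.282. Of 8 other serpin B genes none passed, with Serpinb6b at 0.82 and Serpinb9b at 1.59. These 3 lists had medians of 0.38, 0.14 and 0.50. They hold several dim genes, while most members were bright, and the medians were not matched for signal level. The medians of the other 2 lists, described next, were -0.079 and -0.23, and that of the members was -0.23.

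Of 30 other protease inhibitors 2 rose and none fell. Stfa2l1, a stefin A relative of Stfa3, had ratios of 9.46, 6.94 and 9.42 in Dox and 1.11 and 0.886 in NoDox. That is 8.58-fold, a log2 fold change of 3.10 ± 0.19 (SE), above both NoDox arrays in every Dox array (limma, adjusted p = 0.00085). Serpina3n, a secreted inhibitor of granzyme B and of neutrophil proteases, had ratios of 2.45, 2.26 and 3.88 in Dox and 0.876 and 1.12 in NoDox (log2 fold change 1.49 ± 0.25 SE, limma, adjusted p = 0.0408).

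Of 17 substrates and receptors of the proteases 1 rose and 1 fell. Scnn1g, the gamma subunit of the epithelial sodium channel that is cut by prostasin, had ratios of 15.5, 9.94 and 10.4 in Dox and 0.432 and 1.57 in NoDox. The NoDox arrays stood far apart, and the log2 fold change was 3.83 ± 0.63 (SE, limma, adjusted p = 0.0382). Dsc1, a desmosomal cadherin cut by Klk5 and Klk7, had ratios of 0.487, 0.537 and 0.347 in Dox and 1.03 and 0.969 in NoDox, a log2 fold change of -1.15 ± 0.20 (SE, limma, adjusted p = 0.0460). The cadherin Dsg1a was at -0.74 and the transglutaminase Tgm3 at -1.45, both with all Dox arrays lower and just short of the threshold (adjusted p = 0.0556 and 0.0570).

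Markers of the tissue were checked on the same scale. The squamous markers Krt4 and Krt13 of the upper esophageal layers were at -0.043 and 0.00023. None of the 11 squamous markers passed the threshold, with a median of -0.068 against -0.23 for the members. All Dox arrays were below both NoDox arrays in 3 of the 11 and above both in 2. Of 12 macrophage markers all were above 0 and 4 rose, with a summed signal of 1.63 to 1.83 in Dox. Of 7 markers of lung alveoli 6 rose, with a summed signal of 3.14 to 7.76, and of 11 of skeletal muscle 5 fell, with a summed signal of 0.376 to 0.487. Of 11 mast cell markers 1 rose, and of 7 airway markers none passed. Of 7 smooth muscle markers none passed, but all were below 0, with a median of -0.45 and a summed signal of 0.702 to 0.791 in Dox, and 6 had all Dox arrays below both NoDox arrays. Sums are weighted by the recovered signal level, with a common ceiling for the brightest probe sets, and are relative to NoDox. The deposited ratios carry no detection call. The part of these cells in the members' values was not tested.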

How the data were processed

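RNA of 5 esophagus samples was measured on Affymetrix Mouse Genome 430 2.0 arrays, 3 Dox and 2 NoDox, grouped by their titles. Microarray Suite 5.0 gave the signals and GeneSpring 7.3.1 the normalization, per the submitters' processing notes. The authors deposited linear ratios: in 45099 of 45101 probe sets the NoDox values sum to 2 within 0.0001, so each is a signal over the NoDox mean.

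Signals appear stored in whole steps, each array multiplied by a constant (0.938, 0.899 and 0.942 in Dox, 0.994 and 1.01 in NoDox). Step numbers matching the ratios within 2.4e-07 were found for 41498 probe sets (92.0%), and for 0.95% of 4000 shuffled ones. In simulation 96.5% of those found were exactly right, the rest a whole-number fraction. The simulated signals were mostly dimmer than the measured ones and 99.8% of them were found, so this share need not hold for bright probe sets. All probe sets at or above 52356 steps (9.25%, 21 of the 35 members) were given that one level as a ceiling, with ties among probe sets broken by their identifier. The ceiling was set after a first fit had been seen, because the bounds it replaced followed the fold change. Without it 188 genes were higher and 120 lower.

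The test was limma 3.58.1 (R 4.3.3) on log2 ratios: lmFit and eBayes with the log2 level as trend covariate, two-sided p adjusted by Benjamini-Hochberg over 18193 genes, without offset or filter. Of the probe sets 34945 had 1 symbol, 932 several and 9160 none, and 64 were controls. The fit has 3 residual and 4.12 prior degrees of freedom, and the smallest p of exact permutation for 3 against 2 arrays is 0.1. On simulated data it called 0 genes without change, and 76, 138 and 151 of 200 genes changed 2-, 4- and 8-fold. False were 7, 14 and 12 of the 83, 152 and 163 calls. The simulated noise was normal, with the variances of this same fit, so the simulation cannot test its intensity trend. Precision is limited by the number of arrays.

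The members, the 5 related lists and the marker lists were chosen with earlier results of these data known. Full values are given for members past the threshold, the 5 largest fold changes short of it and the smallest p of each role. Related genes are named when past the threshold, or as the 2 of smallest p in a list. A few further members and both upper-layer keratins were picked after their values were seen. Alternatives covered trend, scaling, offset, level filter, probe set choice, variance model, threshold, single arrays and replicate numbers. Tables and plots were made with Python 3.11.15, numpy 2.4.6, pandas 2.3.3 and matplotlib 3.10.9.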

Additional observations from a re-analysis of the deposited data

How the results depend on the processing

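The members were refitted under 20 alternative settings (34 of the 35 with the level filter, which left out A2ml1), and signs changed in 29 cases, all among members that were not called. Undoing the array constants, dropping the level ceiling and quantile-normalizing the signals were added after the data were seen. Stfa3 kept its call with each array left out, and the 4 called members kept their direction under all settings run. Without the intensity trend 14 genes were higher and 1 lower, and with the mean log2 ratio as trend 0 and 0 (2402 at an unadjusted p under 0.05), with 0 members either way in both. Quantile normalization of the ratios left 41 and 7, with 0 members lower, and by construction mixes the narrow spread of the NoDox ratios with that of Dox. Array weights gave 289 and 264, and an adjusted p under 0.1 gave 321 and 273. Undoing the array constants gave 77 lower and quantile-normalized signals 59. Leaving out 1 array gave 41 to 237 higher and 8 to 301 lower, with 1 member higher each time and 0 to 5 lower. Members higher numbered 2 with median centring, the level filter, array weights, the constants undone or quantile-normalized signals, and 3 with robust eBayes or an adjusted p under 0.1.

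Among the values that changed sign, Prss8 was 0.070 with median centring, 0.040 with quantile ratios, 0.098 with constants undone and 0.12 with quantile signals. Serpinb5, in the probe set used, was 0.039, 0.033, 0.067 and 0.10 under the same 4. With quantile signals Klk11 was 0.011 and Spint2 0.0050. A2ml1 was 0.046 and 0.068 with offsets of 388 and 961 steps. Leaving out 1 array, the range was -0.060 to 0.15 for Klk7, -0.27 to 0.025 for St14, -0.15 to 0.088 for Prss8, -0.057 to 0.10 for Tmprss13, -0.030 to 0.093 for Htra1, -0.26 to 0.0079 for Spint2, -0.11 to 0.023 for Serpinb5 and -1.29 to 0.30 for A2ml1. The cause was not tested.

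The titles give replicate numbers 1 and 2 to both groups. No label states that the numbers pair animals, so they were not taken to do so. Deviations of same-numbered arrays from their group means had correlations of 0.03 and 0.05. The deviations of the 2 NoDox arrays mirror each other, so these values are not independent and cannot decide the pairing. With the replicate number as a block 2 members were higher, Klk6 added (adjusted p = 0.00642), and Prss8, Tmprss13 and A2ml1 took the values 0.025, -0.057 and 0.30. Dox replicate 3 has no partner and drops out of that contrast.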
